A study of Mus musculus with 20 samples.

Results

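The genes described here are the 10 hormones and markers of enteroendocrine cells on a list set by gene symbol, Gcg, Pyy, Cck, Sct, Nts, Insl5, Tph1, Chga, Chgb, and Neurod1. All 10 were in the table of 19887 genes counted in the mouse cecum, and 8 of them were among the 15348 genes with enough reads to be tested. Insl5 and Neurod1 were below the limit on low counts and are given as counts.

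RNA came from cecum sections of 20 C57BL/6 mice, 5 on each of 4 diets. All mice were put at weaning, at 3 to 4 weeks of age, on the Total Western Diet (TWD), a rodent diet built on the nutrient intake of people in the United States, and stayed on it for 6 weeks. They then received the TWD with 0, 2, 5, or 10% (w/w) resistant potato starch (RPS, named raw potato starch in the labels) for another 3 weeks, so the 0% RPS mice were the TWD control. The sex of the mice whose RNA was sequenced is not given in the sources used here.

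Enteroendocrine cells are rare, scattered epithelial cells that sense the gut contents and release peptide hormones or serotonin. In the cecum and colon, L cells make glucagon-like peptides from Gcg together with peptide YY, and enterochromaffin cells make serotonin through tryptophan hydroxylase 1, the product of Tph1. Short-chain fatty acids made by bacteria from fermented starch are among the signals that L cells sense. The paper reports that RPS left total short-chain fatty acids, acetate, and propionate in the cecal contents unaltered. Butyrate rose with RPS, with significance only on the highest dose, and isobutyrate and isovalerate fell. The diet comparison addresses the RNA level of these genes by dose of RPS, and sensing of fatty acids by L cells was not tested. A section of cecum wall holds these cells beside many others, so a lower level can mean fewer cells of a type or less RNA per cell, and the 2 cannot be told apart in bulk tissue.

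Total counts ranged from 14967798 to 42687283 per mouse, with medians from 26931665 (10% RPS) to 33638054 (5% RPS). Summed over 10 general epithelial markers, the level ranged from 11700 to 18300 CPM (counts scaled to library size), and the 3 of 10 pancreas markers in the table had 2 reads (Prss2), 8 reads (Cela3b), and 17 reads (Ctrb1) over all 20 mice. Smooth muscle markers had, as their summed level, a median of 4000 CPM (range 3020 to 6880) on 0% RPS and 7100 CPM (4920 to 8150) on 10% RPS, and all 8 had values above 0 in 10 vs. 0% RPS, 1 of them past the threshold. All 10 epithelial markers had values below 0, again 1 of them past the threshold. In 10 vs. 0% RPS the median log2 fold change was −0.31 over 12 enteric neuron markers, −0.15 over 5 glia markers, −0.28 over 8 small-intestine markers, 0.04 over 6 tuft cell markers, and 2.04 over 8 B cell markers, with none of these past the threshold. It was −0.54 over 8 goblet cell markers (1 lower past the threshold) and −0.43 over 7 markers of absorptive colonocytes (1 higher and 1 lower). Whether the share of muscle or epithelium in the sections has a part in the values below was tested only by adding each score to the model as a covariate.

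The members differed widely in level. Compared per length, as RPKM (reads scaled to library size and to the length of the canonical transcript) averaged over all 20 mice, Sct, which encodes secretin, the hormone that drives bicarbonate secretion, had the highest level at 94.1 ± 18.2 (SD). Its lowest mouse (54.7 RPKM) was above the highest mouse of any other member (29.5 RPKM, for Chga). Pyy followed at 19.3 ± 3.86, then Chga at 17.0 ± 4.26, Gcg at 16.9 ± 2.46, Chgb at 13.9 ± 3.43, and Nts at 10.9 ± 2.98 RPKM. Neighbours among these 5 genes overlapped in their ranges over mice, so their order is not resolved beyond the spread. With the length of all exons in place of the canonical transcript, Chga had a mean of 5.08 RPKM, below Nts (9.97). Tph1 lay lower at 1.68 ± 0.383 RPKM, and its highest mouse (2.35) was below the lowest mouse of Nts (6.71). Cck, which encodes cholecystokinin, was at 0.19 ± 0.0779 RPKM. Insl5 and Neurod1 were at the limit of detection.

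**Figure D1:**
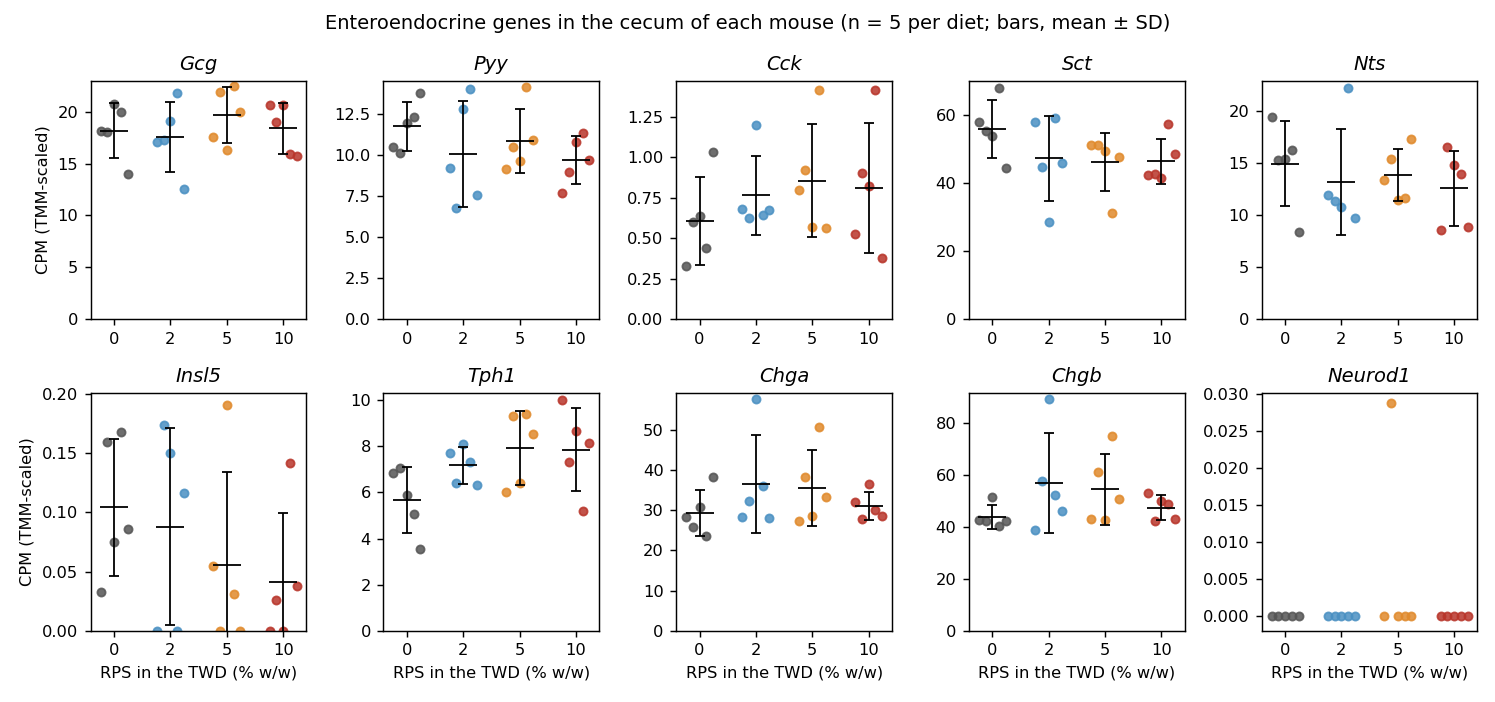
Level of each of the 10 enteroendocrine genes (CPM, scaled by TMM, on the y axis, with its own scale per gene) against the percentage of RPS in the diet. Each point is a mouse and the bars give the mean ± SD of 5 mice per diet. The diets overlap for every gene, Tph1 has 4 of 5 mice on 10% RPS above the highest mouse on 0% RPS, and Neurod1 has a single read in 1 mouse.

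No member was past the threshold on any RPS diet. With edgeR's quasi-likelihood test, 0 of the 8 tested members had an adjusted p of at most 0.05 and a fold change of at least 1.5 in 10 vs. 0% RPS, where 1.04 percent of all tested genes did. The count was also 0 of 8 in 5 vs. 0% RPS (0.195 percent of all genes) and in 2 vs. 0% RPS (0 percent of all genes). It was 0 of 8 for a linear trend with the dose of RPS (1.11 percent of all genes) and for a difference among any of the 4 diets (0.0912 percent of all genes). At an unadjusted p under 0.05, 1 of 8 members passed in 10 vs. 0% RPS against 19.5 percent of all tested genes. Likewise 1 of 8 passed in 5 vs. 0% RPS against 13.3 percent, 1 of 8 in 2 vs. 0% RPS against 5.77 percent, 1 of 8 for the trend against 18.8 percent, and 0 of 8 for any diet against 11.1 percent. DESeq2 also called 0 members in each of the 5 tests. No member had mice on 10% RPS that were all above or all below the 0% RPS mice, as 4.88 percent of all tested genes had. The median log2 fold change of the 8 members was 0.05 in 10 vs. 0% RPS, 0.20 in 5 vs. 0% RPS, and 0.13 in 2 vs. 0% RPS, beside 0.004, −0.002, and 0.003 over all tested genes. The 3 comparisons share the same 0% RPS mice and are not independent of each other.

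**Figure D2:**
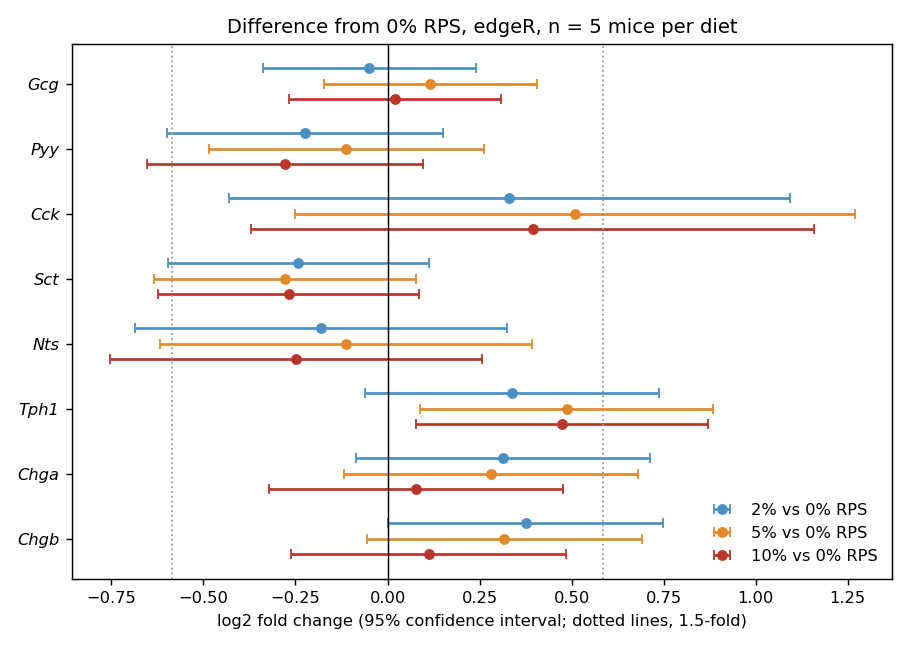
Log2 fold change of each tested member (x axis) on 2, 5, and 10% RPS relative to 0% RPS, from edgeR with 5 mice per diet. Points are estimates, bars are 95% confidence intervals, and dotted lines mark a 1.5-fold change. Only the intervals of Tph1 on 5 and 10% RPS and of Chgb on 2% RPS leave out 0.

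Among the L cell hormones, Gcg, the gene of proglucagon (GRCm39, chr2:62304873-62313997, minus strand), varied least of all members over the 20 mice, with a coefficient of variation of 14.6%. On 0% RPS its level was 18.1, 18.0, 20.7, 20.01, and 13.97 CPM in the 5 mice. On 10% RPS it was 20.7, 19.0, 20.7, 15.9, and 15.7 CPM. Every mouse on 10% RPS lay within the range of the 0% RPS mice. The log2 fold change of Gcg was 0.02 (SE 0.14, 95% interval −0.27 to 0.31, adjusted p = 0.96, edgeR) on 10% RPS, and a 1.5-fold difference in either direction lay outside this interval. It was 0.12 on 5% RPS and −0.05 on 2% RPS.

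Pyy (chr11:101997502-101998658, minus strand), the gene of the appetite-lowering peptide YY, was at 10.5, 10.1, 12.0, 12.3, and 13.8 CPM on 0% RPS. The mice on 10% RPS were at 7.67, 8.98, 10.8, 11.3, and 9.72 CPM. On 10% RPS 3 of 5 mice were below the lowest 0% RPS mouse, and the others lay within the 0% RPS range. Pyy differed by −0.28 on the log2 scale (SE 0.18, 95% interval −0.65 to 0.10, adjusted p = 0.407, edgeR). With the epithelial score as a covariate it was −0.10. On 2% RPS Pyy spread most, from 6.75 to 14.0 CPM, with 3 mice below and 1 above the 0% RPS range.

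Insl5 (chr4:102875069-102884039, minus strand) encodes insulin-like peptide 5, an L cell hormone of the colon. In the proximal colon, not examined here, the paper lists it among the genes lower on 10% RPS. In the cecum Insl5 had 41 reads in all, found in 14 of 20 mice with at most 5 reads in any mouse. The reads summed to 15 on 0% RPS, 15 on 2% RPS, 6 on 5% RPS, and 5 on 10% RPS. On 0% RPS all 5 mice had reads, and on 10% RPS 3 of 5 did. Without the limit on low counts, the log2 fold change in 10 vs. 0% RPS was −1.43 (adjusted p = 0.46, edgeR), and the trend was −0.16 per percent of RPS (unadjusted p = 0.0839, adjusted p = 0.356). A mouse with 0 reads could still have held up to 0.0698 CPM in the deepest library and 0.19 CPM in the shallowest (3 reads, counting error only), and the highest mouse was at 0.19 CPM. The level of Insl5 in every mouse was thus at or under the limit that 0 reads allow in the shallowest library.

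Nts (chr10:102317614-102326396, minus strand) encodes neurotensin, which slows gut motility and helps fat uptake. It ranged from 8.38 to 19.5 CPM on 0% RPS and from 8.61 to 16.5 CPM on 10% RPS, so that all 10% RPS mice lay within the 0% RPS range. Its log2 fold change was −0.25 (SE 0.24, 95% interval −0.76 to 0.26, adjusted p = 0.61, edgeR). With single mice left out, this value ranged from −0.388 to −0.136. It was −0.06 with the epithelial score as a covariate and turned to 0.087 with the smooth muscle score. Its highest mouse was mouse 4 on 2% RPS at 22.2 CPM, above the other 4 mice on that diet (9.75 to 11.9 CPM).

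Cck (chr9:121315695-121324863, minus strand), whose product empties the gallbladder and signals satiety, was near the limit on low counts, with 9 to 45 reads per mouse. It was at 0.326, 0.597, 0.638, 0.437, and 1.03 CPM on 0% RPS and at 0.523, 0.904, 0.822, 1.41, and 0.375 CPM on 10% RPS. On 10% RPS 1 mouse was above the 0% RPS range and the others within it. The estimate, 0.39 on the log2 scale (SE 0.37, 95% interval −0.37 to 1.16, adjusted p = 0.59, edgeR), had the widest interval of the tested members, and a 2-fold difference lies within it. It was 0.12 without mouse 4 on 10% RPS, 0.23 without mouse 1 and 0.70 without mouse 5 on 0% RPS, and 0.20 with the smooth muscle score as a covariate. Noncoding genes on the opposite strand overlap Cck and Chgb in the annotation. None of them is in the table, and the strand setting of the counting is not given in the sources used here.

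Sct (chr7:140858243-140859052, minus strand) was the best-expressed hormone. On 0% RPS its level was 58.1, 55.4, 54.0, 68.2, and 44.5 CPM. The 10% RPS mice were at 42.5, 42.7, 41.5, 57.3, and 48.6 CPM. On 10% RPS 3 of 5 mice were below the lowest 0% RPS mouse, and the other 2 lay within the range. Relative to 0% RPS, Sct had a log2 fold change of −0.27 on 10% RPS (SE 0.17, 95% interval −0.62 to 0.09, adjusted p = 0.395, edgeR), −0.28 on 5% RPS, and −0.24 on 2% RPS. Without mouse 3 on 2% RPS and mouse 4 on 5% RPS, it was −0.261 on 10% RPS, −0.166 on 5% RPS, and −0.107 on 2% RPS. With all mice and the score of smooth muscle markers as a covariate, the 10% RPS value was 0.06 (adjusted p = 0.862, edgeR).

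Tph1 (chr7:46294065-46321965, minus strand), the gene of the rate-limiting enzyme of serotonin synthesis outside the brain, was the member nearest to the threshold. Its level was 6.84, 7.05, 5.89, 5.07, and 3.53 CPM on 0% RPS and 10.0, 7.31, 8.66, 5.18, and 8.14 CPM on 10% RPS. On 5% RPS it was 6.00, 9.30, 6.41, 9.41, and 8.53 CPM, and on 2% RPS 7.69, 6.40, 8.12, 7.30, and 6.33 CPM. Above the highest 0% RPS mouse were 4 of 5 mice on 10% RPS, 3 of 5 on 5% RPS, and 3 of 5 on 2% RPS, and no mouse on RPS was below the lowest. The groups still overlapped on every diet.

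The log2 fold change of Tph1 was 0.47 on 10% RPS (1.39-fold, SE 0.19, 95% interval 0.08 to 0.87), with an unadjusted p of 0.0219 and an adjusted p of 0.182 (edgeR). On 5% RPS it was 0.49 (1.40-fold, SE 0.19, adjusted p = 0.252, edgeR) and on 2% RPS 0.34 (1.26-fold, SE 0.19, adjusted p = 0.892, edgeR). The trend was 0.04 per percent of RPS (SE 0.02, adjusted p = 0.244, edgeR). A two-sided exact permutation test of log2 CPM between the 5 mice on 10% and the 5 on 0% RPS gave p = 0.0714, where the smallest possible p is 0.00794. Under the 31 alternatives to the 10% RPS fit, the log2 fold change of Tph1 stayed between 0.33 and 0.60, and its adjusted p between 0.0747 and 0.631. The lowest fold change and the highest adjusted p came with the epithelial score as a covariate. Mast cells of mice also express Tph1. Of 9 mast cell markers found, 6 were tested. Their summed level was 25.4 CPM (11.8 to 53.4) on 0% RPS and 17.1 CPM (7.92 to 23.7) on 10% RPS as median and range, and 1 of the 6 was higher on 10% RPS, by 0.19 on the log2 scale (Hdc, adjusted p = 0.812, edgeR). On 5% RPS the median sum was 27.4 CPM (17.3 to 85.8) and 5 of the 6 had values above 0, none past the threshold. Over the 20 mice, with diet means subtracted, Tph1 and these markers had r = 0.473 (permutation p = 0.0603, adjusted 0.306), rho = 0.577 (p = 0.0173, adjusted 0.276), and r = 0.395 without the 2 mice farthest from the median of the marker level. The part of mast cells in the values of Tph1 was not tested further.

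Chga and Chgb encode chromogranin A and B, which pack hormones into the dense-core granules of nearly all enteroendocrine cells. On 0% RPS the 5 mice had 28.3, 25.8, 30.8, 23.6, and 38.3 CPM of Chga (chr12:102520484-102531300, plus strand) and on 10% RPS 32.1, 27.9, 36.4, 29.97, and 28.6 CPM. All 10% RPS mice lay within the 0% RPS range, and the log2 fold change was 0.08 (SE 0.19, 95% interval −0.32 to 0.48, adjusted p = 0.868, edgeR). Chgb (chr2:132622464-132637904, plus strand) was at 42.5, 42.3, 51.7, 40.4, and 42.5 CPM on 0% RPS and at 53.3, 42.2, 49.8, 48.9, and 42.99 CPM on 10% RPS. Only 1 mouse on 10% RPS was above the 0% RPS range. For Chgb the log2 fold change was 0.11 (SE 0.18, 95% interval −0.26 to 0.49, adjusted p = 0.778, edgeR). With the smooth muscle score as a covariate, both turned, to −0.16 for Chga and −0.02 for Chgb.

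On either intermediate diet, the same mouse had the highest level of both granins. On 2% RPS Chga was 28.4, 32.2, 57.6, 36.0, and 28.2 CPM and Chgb was 38.8, 57.6, 89.2, 52.4, and 46.3 CPM. On 5% RPS Chga was 27.3, 38.2, 28.7, 50.7, and 33.4 CPM and Chgb was 43.2, 61.2, 42.8, 75.1, and 50.7 CPM. Mouse 3 on 2% RPS and mouse 4 on 5% RPS had the highest levels of both genes of all 20 mice. On 2% RPS, Chgb had a log2 fold change of 0.38 (adjusted p = 0.849, edgeR) with these mice and 0.15 without both of them. For Chga on 2% RPS it was 0.31 with and 0.08 without them. In 5 vs. 0% RPS, Chgb was 0.32 with and 0.17 without them, and Chga was 0.28 with and 0.11 without. With all mice and the smooth muscle score as a covariate, the 5% RPS values were 0.145 for Chgb and −0.03 for Chga. Chgb was above the 0% RPS range in 3 of 5 mice on 2% RPS, with 1 of 5 below it, and above it in 2 of 5 on 5% RPS, and Chga in 1 of 5 on either diet.

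The promoter windows of the granin genes and of Sct are shown because Chga and Chgb moved together over mice and against Sct. They are the 250 bases before and 50 bases after the start site in RefSeq (GRCm38.p6), each matched exactly and once in GRCm39, at chr12:102520950-102521249 (plus strand, Chga), chr2:132623312-132623611 (plus strand, Chgb), and chr7:140858997-140859296 (minus strand, Sct). Capitals mark TGACGT, the core of the cAMP response element (CRE), and CANNTG, the E-box that basic helix-loop-helix factors such as NEUROD1 can bind, read on both strands.
Chga: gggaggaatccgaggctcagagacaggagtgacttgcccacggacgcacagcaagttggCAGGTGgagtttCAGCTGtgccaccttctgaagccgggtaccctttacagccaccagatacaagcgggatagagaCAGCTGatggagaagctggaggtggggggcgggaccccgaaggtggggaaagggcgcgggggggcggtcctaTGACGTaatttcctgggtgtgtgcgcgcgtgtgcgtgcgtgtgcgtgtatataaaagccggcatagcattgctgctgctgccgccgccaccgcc
Chgb: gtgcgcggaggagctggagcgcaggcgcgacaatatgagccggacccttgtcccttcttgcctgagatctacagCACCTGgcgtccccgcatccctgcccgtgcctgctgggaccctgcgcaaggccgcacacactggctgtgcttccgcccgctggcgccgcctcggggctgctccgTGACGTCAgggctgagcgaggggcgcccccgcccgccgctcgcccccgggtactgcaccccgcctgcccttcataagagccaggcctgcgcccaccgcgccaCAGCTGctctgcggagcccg
Sct: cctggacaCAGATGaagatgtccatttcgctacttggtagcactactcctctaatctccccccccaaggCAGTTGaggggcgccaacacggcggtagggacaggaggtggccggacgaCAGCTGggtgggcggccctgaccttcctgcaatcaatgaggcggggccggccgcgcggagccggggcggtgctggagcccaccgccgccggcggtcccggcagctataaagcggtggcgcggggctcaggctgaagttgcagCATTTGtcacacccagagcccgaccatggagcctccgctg
The CRE core was in the windows of Chga, at position 207 of 300, and of Chgb, where it is read on both strands at positions 179 and 181 as an overlapping pair, and in no window of the 8 other members. Of 32544 windows of this length in the RefSeq table, 7.55 percent held it. An E-box was in 12 of the 13 windows of the 10 members and in 72.3 percent of all windows. Insl5, Pyy, and Tph1 each had an additional window. Those of Pyy overlap and hold the same E-box, so the windows are not independent. These are matches of letters and do not show binding, and their part in the pattern over mice was not tested.

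Neurod1 (chr2:79282865-79287294, minus strand) encodes a transcription factor of enteroendocrine differentiation. The table gives 1 read for it in all 20 mice, in mouse 2 on 5% RPS. Neurod1 lies within Cerkl, a gene on the same strand with 345 reads in all and 7 to 26 reads per mouse, so its reads could have been divided or left out by the counting, whose rule for overlapping genes is not given in the sources used here. The value is therefore uncertain, and no difference between diets is read from a single read.

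Beyond diet, few pairs of members varied together. After the diet means of log2 CPM were subtracted, Chga and Chgb had the highest correlation over the 20 mice, with Pearson's r = 0.865 (permutation within diets, p = 0.00023, adjusted over 28 pairs 0.00644) and Spearman's rho = 0.847 (p = 6e-05, adjusted 0.00168). Of the 28 pairs, 6 had an adjusted p of at most 0.05 for r, and only Chga with Chgb had it for rho as well. The pair rests in part on mouse 3 on 2% RPS and mouse 4 on 5% RPS. These are also the 2 mice farthest from the median of Chga, and without them r was 0.636 (permutation p = 0.009), and no pair of the 28 had both adjusted p-values at most 0.05. Without mouse 4 on 10% RPS, 5 pairs had both.

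Sct moved against the granins in the same mice. Its correlation was r = −0.794 with Chga (permutation p = 0.00211, adjusted 0.0216, and rho = −0.565, adjusted 0.1) and r = −0.724 with Chgb (p = 0.00815, adjusted 0.038, and rho = −0.552, adjusted 0.114). Without mouse 3 on 2% RPS and mouse 4 on 5% RPS, r was −0.429 (permutation p = 0.112) for Chga and −0.213 (p = 0.411) for Chgb, so both relations rest on these mice. Sct was 28.5 and 31.2 CPM in them and from 41.5 to 68.2 CPM in the other 18 mice. Chga was 57.6 and 50.7 CPM against 23.6 to 38.3 CPM, and Chgb was 89.2 and 75.1 CPM against 38.8 to 61.2 CPM. Gcg was 19.1 and 22.5 CPM in them against 12.6 to 21.9 CPM, Pyy 12.8 and 14.1 CPM against 6.75 to 14.0 CPM, and Cck 1.20 and 1.42 CPM against 0.326 to 1.41 CPM, so that mouse 4 on 5% RPS was the highest of the 20 mice in these 3 genes. Tph1 was 8.12 and 9.41 CPM against 3.53 to 10.0 CPM.

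**Figure D3:**
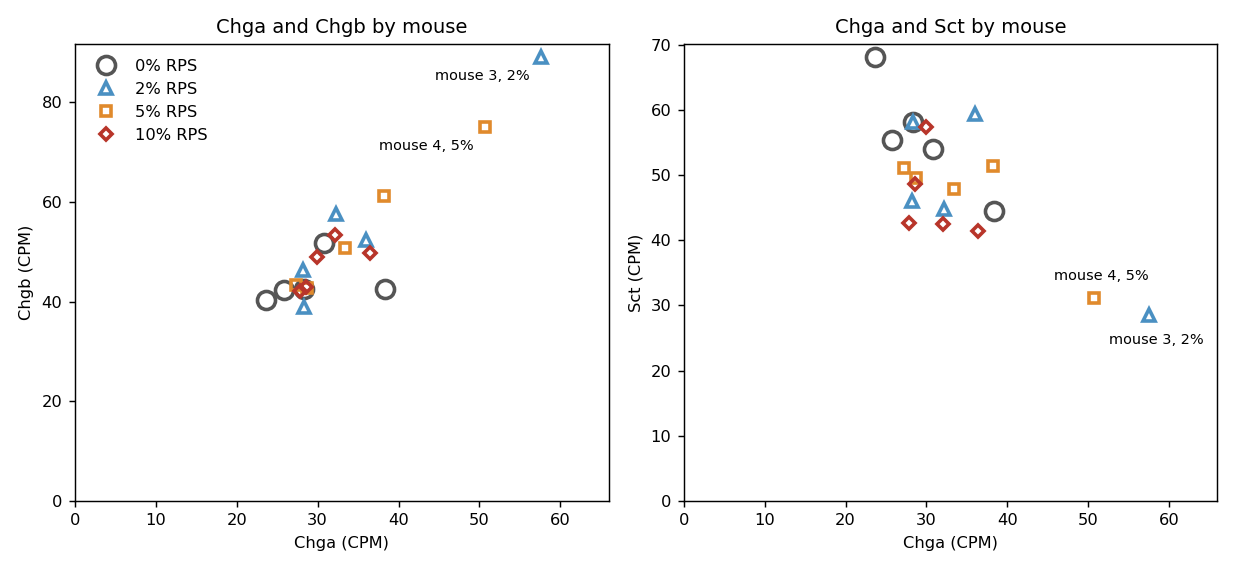
Chgb (left, y axis) and Sct (right, y axis) against Chga (x axis), all in CPM, 1 open symbol per mouse, its colour and shape set by diet. Mouse 3 on 2% RPS and mouse 4 on 5% RPS stand apart in both panels, with the highest Chga and Chgb and the lowest Sct of the 20 mice.

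Markers of other cells also stood apart in one or both of these mice. Their summed mast cell markers were 54.8 and 85.8 CPM against 7.92 to 53.4 CPM in the other 18 mice. Smooth muscle markers summed to 5120 and 11300 CPM against 3020 to 8620 CPM, so that mouse 4 on 5% RPS was above all others. B cell markers were 399 and 170 CPM against 4.21 to 361 CPM, with mouse 3 on 2% RPS the highest. For small-intestine markers, a list led by Fabp2, the sums were 1290 and 1390 CPM against 1390 to 2440 CPM, and only mouse 3 on 2% RPS was below the others. Enteric neuron markers, which matter because neurons also express the granins, were 107 and 132 CPM and lay within the range of the other mice (89.2 to 205 CPM). Total counts were 33842411 and 33638054, within the range of the others. Of 48 relations between the 8 members and 6 such marker lists, chosen after these mice had been seen, none had an adjusted p of at most 0.05 for r or rho. The smallest unadjusted p for r was that of Sct with smooth muscle markers (r = −0.649, permutation p = 0.00261, adjusted 0.0748, and rho = −0.671, adjusted 0.0686), and r was −0.46 without the 2 mice farthest from the median of the marker level. The part of these cells in the values of Chga, Chgb, and Sct was not tested further.

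Among the hormones, Gcg and Tph1 had r = 0.652 (permutation p = 0.00231, adjusted 0.0216) and rho = 0.576 (adjusted 0.0958). It was r = 0.561 without the 2 mice farthest from the median of Gcg. Pyy and Chga had r = 0.649 (permutation p = 0.00768, adjusted 0.038) and rho = 0.645 (adjusted 0.0958), and r = 0.766 without the 2 mice farthest from the median of Pyy. Gcg and Pyy, both L cell hormones, had r = 0.36, and Cck and Chga had r = 0.594 (permutation p = 0.00501, adjusted 0.0351, and rho = 0.436, adjusted 0.157). Without mouse 3 on 2% RPS and mouse 4 on 5% RPS, r was 0.445 (permutation p = 0.0518) for Pyy with Chga, 0.368 (p = 0.177) for Cck with Chga, and 0.619 (p = 0.00533) for Gcg with Tph1. Over all 28 pairs r ranged from −0.794 to 0.865 with a median of 0.24, and 17 pairs were positive.

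**Figure D4:**
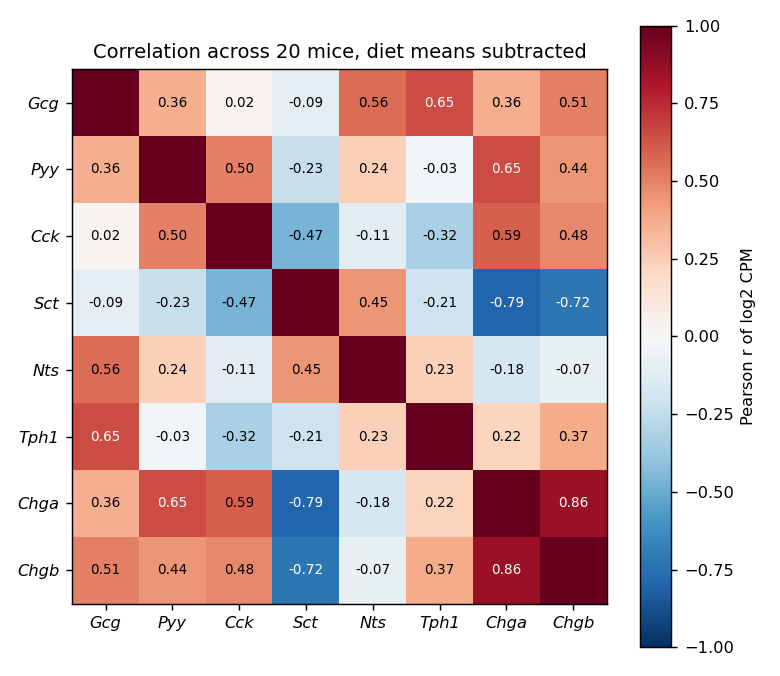
Pearson's r of log2 CPM between the 8 tested members over 20 mice with the diet means subtracted (rows and columns, genes, colour and number, r). Chga and Chgb are the most alike, and Sct is opposite to both.

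Outside the lists, the 5 genes whose pattern over the 20 mice was most like the mean z score of the 8 tested members were Eme2 (r = 0.732), Thoc6 (0.694), Tg (0.678), Igkv4-50 (0.673), and F2r (0.671). The members' own correlation with that score ran from −0.26 for Sct to 0.83 for Gcg. The score therefore does not stand for Sct. The 5 genes head a ranking of all tested genes outside the lists, and whether their r exceed chance was not tested.

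Other genes around enteroendocrine cells were taken as 7 lists of 114 gene symbols, of which 109 were in the table and 89 were tested. The lists also hold hormone receptors and Notch genes, so their counts do not stand for enteroendocrine cells alone. In 10 vs. 0% RPS, 0 of 89 passed. At an unadjusted p under 0.05, 7 were higher and 5 were lower, beside 19.5 percent of all tested genes, and the median log2 fold change was −0.06. The counts past the threshold were also 0 on 5 and 2% RPS and for the trend. At an unadjusted p under 0.05, 9 were higher and 1 was lower in 5 vs. 0% RPS (13.3 percent of all genes), 4 were higher and none was lower in 2 vs. 0% RPS (5.77 percent), and 6 were higher and 8 lower for the trend (18.8 percent). Of 10 other gut peptides tested, none was under 0.05 in 10 vs. 0% RPS. Penk, the enkephalin gene, was nearest at 5.26 ± 2.61 CPM (SD, n = 5) on 0% RPS and 3.60 ± 0.903 on 10% RPS (log2 fold change −0.55, adjusted p = 0.289, edgeR). Without mouse 5 on 0% RPS it was −0.24, and this mouse also had the highest enteric neuron markers of its diet (205 CPM, against 98.6 to 153 CPM in the other 4), whose part in Penk was tested only as a covariate (−0.24). The galanin gene Gal was 0.40 on the log2 scale (adjusted p = 0.388), Adcyap1 0.41 (0.633), and Vgf 0.25 (0.73, all edgeR). Over the alternatives these values ranged from 0.048 to 0.619 for Gal, 0.023 to 0.587 for Adcyap1, and −0.297 to 0.536 for Vgf. Of 18 tested lineage factors, 1 was higher and 1 was lower at an unadjusted p under 0.05, beside 19.5 percent of all genes. The higher gene, Hhex, a homeobox factor of somatostatin cells that B cells also express, was 2.21 ± 1.85 CPM (SD, n = 5) on 0% RPS and 5.15 ± 2.25 on 10% RPS (log2 fold change 1.23, unadjusted p = 0.0492, adjusted p = 0.255, edgeR). Its mice ranged from 1.14 to 5.49 CPM and from 1.37 to 7.11 CPM, and the part of B cells in it was not tested. The lower gene, Foxa1, which acts early in gut hormone cells, was 60.8 ± 3.83 CPM (SD, n = 5) on 0% RPS and 54.3 ± 3.14 on 10% RPS (adjusted p = 0.255, edgeR). Rfx6, which drives endocrine progenitors, was 0.809 ± 0.336 and 0.517 ± 0.19 CPM (adjusted p = 0.274, edgeR). Sox4 had a log2 fold change of 0.17 (adjusted p = 0.3, edgeR).

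For granule and prohormone processing, 20 genes were tested, and 2 were higher and 1 was lower at an unadjusted p under 0.05, beside 19.5 percent of all genes. Pam, which amidates peptides such as peptide YY, was 62.6 ± 6.58 CPM on 0% RPS and 72.0 ± 4.51 on 10% RPS (n = 5 each, log2 fold change 0.20, adjusted p = 0.235, edgeR). Ptprn2, a protein of the granule membrane, was 13.7 ± 1.6 and 10.6 ± 0.827 CPM (log2 fold change −0.37, adjusted p = 0.136, edgeR). Cacna1a, a calcium channel subunit, was 13.7 ± 1.65 and 16.3 ± 1.27 CPM (log2 fold change 0.25, adjusted p = 0.249, edgeR). Cpe, which trims prohormones, was 110 ± 20.1 and 135 ± 15.3 CPM (adjusted p = 0.263, edgeR). Over 30 alternatives, the log2 fold change ranged from 0.038 to 0.401 for Cpe, 0.042 to 0.326 for Cacna1a, and 0.069 to 0.248 for Pam. For Ptprn2 it ranged from −0.409 to −0.301. The adjusted p of Cpe ranged from 0.0484 to 0.887 (edgeR or DESeq2), never at a 1.5-fold change.

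Around serotonin, 8 genes were tested. Trpa1, an irritant-sensing channel of enterochromaffin cells that sensory neurons also carry, had the lowest unadjusted p of the pathway lists. It was 2.75 ± 1.16 CPM on 0% RPS, 2.37 ± 0.969 on 2% RPS, 1.85 ± 0.456 on 5% RPS, and 1.44 ± 0.305 on 10% RPS (n = 5 each). Its log2 fold change in 10 vs. 0% RPS was −0.94 (SE 0.30, unadjusted p = 0.00502, adjusted p = 0.0964, edgeR), opposite in sign to that of Tph1. It was past the threshold with DESeq2 (adjusted p = 0.0419) and with the enteric neuron score as a covariate (adjusted p = 0.0376, edgeR), but with the smooth muscle score it was −0.36 (adjusted p = 0.48, edgeR). Over 30 alternatives its log2 fold change ranged from −1.10 to −0.36 and its adjusted p from 0.0376 to 0.48. Slc6a4, the transporter that takes serotonin up again, was 2.32 ± 0.569 and 3.12 ± 0.239 CPM on 0 and 10% RPS (log2 fold change 0.43, adjusted p = 0.263, edgeR). Maob, whose product breaks down amines, had a log2 fold change of −0.22 (adjusted p = 0.319, edgeR). Ddc, the enzyme after TPH1, was 63.6 ± 3.5 and 57.8 ± 5.95 CPM (adjusted p = 0.343, edgeR).

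Of 11 nutrient sensors tested, none was higher and 1 was lower at an unadjusted p under 0.05 in 10 vs. 0% RPS, beside 19.5 percent of all genes. That gene, Or51e1, an olfactory receptor for short fatty acids, was 2.83 ± 0.399 CPM on 0% RPS and 2.01 ± 0.271 on 10% RPS (log2 fold change −0.49, adjusted p = 0.226, edgeR). The calcium-sensing receptor gene Casr was 0.74 on the log2 scale (adjusted p = 0.265), the glucose transporter gene Slc5a1 −0.20 (0.301), and the taste receptor gene Tas1r3 0.39 (0.309, all edgeR). Over the alternatives these 3 values ranged from 0.24 to 1.073 for Casr, −0.236 to −0.02 for Slc5a1, and 0.279 to 0.505 for Tas1r3. Of 16 genes tested in the list of hormone receptors, which also holds the peptidase genes Dpp4 and Mme, 2 were higher and none was lower at that p, beside the same 19.5 percent. They were the serotonin receptors Htr7 (0.66 on the log2 scale, adjusted p = 0.193) and Htr1b (0.93, adjusted p = 0.198, both edgeR), at under 1 CPM in every mouse. The serotonin receptor gene Htr3a was −0.49 (adjusted p = 0.264) and the receptor gene Npy4r 0.46 (adjusted p = 0.377, both edgeR). In the Notch list, whose signal restrains the secretory fate, 6 genes were tested, and 2 were higher and 1 was lower at an unadjusted p under 0.05, beside 19.5 percent of all genes, and 0 passed the threshold. The ligand gene Dll4 was 0.28 (adjusted p = 0.123), the receptor gene Notch2 0.55 (adjusted p = 0.173), and the target gene Hes1 −0.30 (adjusted p = 0.167, all edgeR) on the log2 scale. The ligand gene Jag1 was −0.18 (adjusted p = 0.455, edgeR). Over the alternatives Notch2 ranged from 0.171 to 0.695, Dll4 from 0.215 to 0.374, Hes1 from −0.456 to −0.242, and Jag1 from −0.232 to −0.077. The adjusted p of Dll4 ranged from 0.0176 to 0.34 (edgeR or DESeq2), never at a 1.5-fold change. Notch2 was 15.3 ± 3.47 CPM (SD, n = 5) on 0% RPS and 22.4 ± 5.83 on 10% RPS, and the mice of both diets overlapped.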

How the data were processed

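RNA was measured by RNASeq in the cecum of 20 mice. Per the methods of the study, the authors made stranded poly(A) libraries, sequenced single-end reads, removed low-quality bases and ambiguous reads, used the CLC Genomics Workbench to map the reads to GRCm39 and count them, and deposited unnormalized counts of reads by gene in 1 table, a column for each mouse. The annotation release, the strand setting, and the handling of multi-mapping reads are not given in the sources used here, which leaves overlapping genes uncertain. Mice were assigned to diets by the labels and numbered 1 to 5 within a diet. Their numbers differ between diets, so nothing is paired. No column was left out.

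Names, positions, and lengths came from GENCODE M39 (19827 identifiers matched, 60 did not). Counts were filtered (edgeR filterByExpr, minimum count 10, total 15), scaled by TMM, and fitted over all 20 mice with edgeR 4.0.16 (quasi-likelihood, robust, two-sided, Benjamini-Hochberg over 15348 genes) in R 4.3.3. The threshold was an adjusted p of 0.05 and, except for the trend and the test of any diet, a 1.5-fold change. Alternatives used DESeq2 1.42.0 and sva 3.50.0. CPM are TMM-scaled, and log2 CPM has a prior count of 2. Correlations used 100000 permutations within diets in numpy 2.4.6 and scipy 1.17.1 under Python 3.11.15. The edgeR fit was tested on simulated data.

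The members and gene lists were chosen with earlier results of these data known. Named in the text are all members, the genes of each pathway list with the smallest p in 10 vs. 0% RPS (up to 4), and the 5 genes outside the lists most like the members. Lists of neurons, glia, mast cells, muscle, B cells, small intestine, pancreas, goblet cells, absorptive colonocytes, and tuft cells were summed as markers of other cells.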

Additional observations from a re-analysis of the deposited data

Results flagged for a closer look

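Within each diet, the highest or lowest of the 5 mice was compared with the others by its gap to the nearest mouse relative to the range of log2 CPM (critical value 0.71). Of 32 such groups, 8 members on 4 diets, 4 held a mouse far from the others, and chance alone gives about 1 in 20. Mouse 3 on 2% RPS was high in Cck at 1.20 CPM (gap 0.873 of the range). Mouse 4 on 5% RPS was low in Sct at 31.2 CPM (gap 0.859). Both are the mice with the highest Chga and Chgb. Mouse 4 on 2% RPS was high in Nts at 22.2 CPM (gap 0.756), and mouse 3 on 0% RPS was high in Chgb at 51.7 CPM (gap 0.793).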

How the results depend on the processing

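No alternative brought a member past the threshold. The count of members called stayed 0 in each of the 5 tests under DESeq2's size factors, DESeq2, other filters, an epithelial covariate, a surrogate variable, each of the 20 mice left out, and 3 alternatives chosen after seeing the data (a smooth muscle score, an enteric neuron score, and leaving out mouse 3 on 2% and mouse 4 on 5% RPS together). It was also 0 in the 3 comparisons with 0% RPS in the fit of the compared diets alone and with no fold change threshold, and for the trend with the dose as a rank. DESeq2, run on all 19887 genes with its own filter, called 368 genes in 10 vs. 0% RPS against 160 with edgeR, 241 against 30 on 5% RPS, 5 against 0 on 2% RPS, and 473 against 14 for any diet. For the trend it called 4.15 times as many as the 170 of edgeR. Low counts limit the precision for Insl5 and Cck.

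Some values changed sign, none of them past the threshold, and the cause was not tested. With the smooth muscle score, the log2 fold change in 10 vs. 0% RPS was −0.16 for Chga (0.08 without the score), −0.02 for Chgb (0.11), 0.087 for Nts (−0.25), 0.055 for Sct (−0.27), −0.008 for Npy4r (0.46), and −0.30 for Vgf (0.25). In 5 vs. 0% RPS it was −0.03 for Chga (0.28), 0.29 for Nts (−0.11), and 0.12 for Sct (−0.28), and the trend was 0.004 for Nts (−0.02) and 0.008 for Sct (−0.022). With the epithelial score, Nts was 0.083 and Pyy 0.051 in 5 vs. 0% RPS (−0.11 for both without it). With the neuron score, Gcg was −0.012 in 10 vs. 0% RPS (0.02) and the trend of Chga 0.003 (−0.002). Without mouse 3 on 2% and mouse 4 on 5% RPS the trend of Chga was 0.007. With single mice left out, the log2 fold change of Gcg ranged from −0.048 to 0.079 in 10 vs. 0% RPS and from −0.136 to 0.056 in 2 vs. 0% RPS, that of Nts in 5 vs. 0% RPS from −0.26 to 0.002, and the trend of Chga from −0.009 to 0.009.

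Of 28 pairs of members, 1 had both adjusted p-values at most 0.05. With single mice left out the count ranged from 1 to 5 (5 without mouse 4 on 10% RPS), and it was 0 without mouse 3 on 2% and mouse 4 on 5% RPS. No paired analysis was possible because the replicate numbers were given in the order of the mice and the labels share none between diets.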
